A study of Drosophila melanogaster with 12 samples.

Results

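Among the places where the transcription factor Saft (CG11247) was mapped on the large autosomal arms of Drosophila S2 cells, 276 regions were found by some of its libraries but not by all. They were chosen from the peak lists themselves. Peaks of the 4 Saft lists that overlapped by 1 bp or more were merged on 2L, 2R, 3L and 3R, and a region was kept if it held a peak in exactly 2 or 3 of the lists and overlapped no peak of either Phaser (CG7372) list. The 276 regions, called members here, were 15.7% (95% Wilson interval 14.1 to 17.5) of the 1756 merged autosomal regions, and with 87.6 kb they covered 8.62% of the merged length. Before the exclusion for Phaser, 459 regions were in 2 or 3 lists, and 183 of them (39.9%, 35.5 to 44.4) overlapped a Phaser peak. The number of lists, the clone combinations and the strength and width of the peaks all come from the lists that chose the members, as do their distances to regions in all 4 lists, so these values are given as a description with no test. An exact permutation of 2 libraries against 2 could in any case not go below p = 0.333. Positions are in build dm3. Depth is unknown, and Wilson intervals here cover counting error over regions only.

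S2 is a line derived from Drosophila embryos. All cells carried OsTir1, a rice F-box protein that lets auxin trigger the breakdown of proteins with a degron. The Saft open reading frame was tagged at its own locus on both homologues with FLAG joined to an auxin-inducible degron (AID), in the 2 clonal lines 9C and 4H, and Phaser likewise in clone 8D. Each line had 2 biological replicates of ChIP with the anti-FLAG antibody M2 and 2 input libraries, 12 samples in all, and no cells had been depleted of the tagged protein. Lines 9C and 4H have the same genotype and each is 1 clone, so a difference between them is one between clones.

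In ChIP-seq, fragments bound by a protein are pulled down and sequenced, and a peak is a place where they pile up beyond a local background. A caller lists a peak only when its q value, the p value adjusted for the number of places looked at, is under a fixed limit. A weakly bound place can therefore enter the list of one library and miss that of another, while a strongly bound place can enter them all. A place bound in 1 clonal line and not in the other can give peaks in both lists of that clone alone, and members confined to 1 clone are therefore kept apart from those found in both.

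Member regions fell into the 10 combinations that 4 lists allow, and the most frequent was both lists of clone 9C with none of clone 4H. That combination held 71 members, or 25.7% of them. Both lists of 4H with none of 9C held 18 (6.52%). Together, 89 members (32.2%, 27.0 to 38.0) were confined to 1 clone and 187 (67.8%) were in both. Of those in both clones, 98 had 1 list of each and 89 had 3 lists. The commonest 3-list combination lacked replicate 1 of 4H and held 53 members, whereas 9, 11 and 16 members lacked replicate 1 of 9C, replicate 2 of 9C and replicate 2 of 4H. Among 2-list combinations across clones, replicate 2 of both clones held 40, replicate 2 of 9C with replicate 1 of 4H held 23, replicate 1 of 9C with replicate 2 of 4H held 21, and replicate 1 of both held 14. The counts turned on which lists were in hand. With 1 library left out, so that members had 2 of 3 lists, 167 regions met the rule without replicate 1 of 9C, 137 without replicate 2 of 9C, 168 without replicate 1 of 4H and 191 without replicate 2 of 4H. The share confined to 1 clone was then 17.4%, 19.7%, 51.8% and 69.6% in the same order. A clone with 1 list left cannot hold such a member, so the first 2 shares are 4H alone and the last 2 are 9C alone. They are therefore not the same measure as the 32.2% above.

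**Figure D1:**
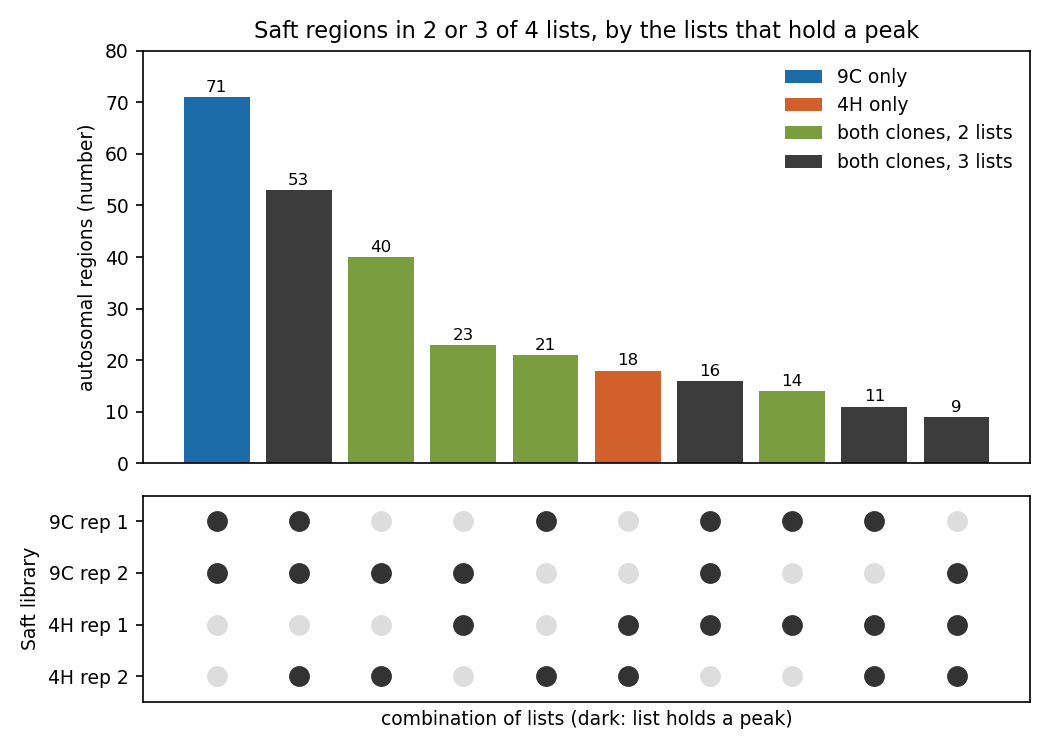
Bars give the number of autosomal Saft regions for each combination of lists, and the dots under each bar show which of the 4 libraries held a peak. The 71 regions of clone 9C alone form the tallest bar, and the 18 of clone 4H alone are fewer than the 53 that lack only replicate 1 of 4H.

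Clone 9C contributed more member peaks than clone 4H. The lists of 9C held 187 and 216 member peaks in replicates 1 and 2, and those of 4H held 92 and 154. Both 9C lists lay above both 4H lists, and replicate 1 of 4H lay lowest. The means were 201.5 ± 20.5 for 9C and 123 ± 43.8 for 4H (SD, n = 2 each), a ratio of geometric means of 1.69. The 71 members of 9C alone and 18 of 4H alone count in both lists of their clone. The counts of replicates are therefore not independent. The 9C lists were also longer, with 1223 and 1336 autosomal peaks against 1046 and 1118. As a share of a list's autosomal peaks, members made up 15.3% and 16.2% in 9C and 8.80% and 13.8% in 4H, a ratio of 1.43. When each list was limited to its 1000 peaks of highest −log10 q, 109 regions met the rule and the ratio of member peaks was 1.14. The ratio was 2.83 without replicate 2 of 4H and 1.41 to 1.56 without any of the other Saft libraries.

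Members were weak in every library that held them. The fold enrichment of a peak is the authors' ratio of ChIP pileup over the caller's background at the summit, the highest point of the peak. Its median over member peaks was 2.95 and 2.82 in replicates 1 and 2 of 9C and 2.76 and 2.93 in those of 4H. These medians overlapped between the clones (ratio 1.01), and the order turned without replicate 1 of 4H (ratio 0.978). Regions in all 4 lists, called 4-list regions here, had medians of 9.69, 8.85, 8.73 and 10.1 in the same order where they were without Phaser. Regions in a single list without Phaser had 2.82, 2.77, 2.78 and 2.82. Members thus stood just above them in 3 libraries and just below in replicate 1 of 4H. Over all 649 member peaks, fold ran from 1.85 to 5.52.

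The −log10 q gave the same order, with member peaks again just below single-list peaks in replicate 1 of 4H (medians 3.67 and 3.75). Over all libraries, the median −log10 q was 3.83 for member peaks. It was 3.36 for peaks of single-list regions and 59.4 for those of 4-list regions, both without Phaser. A value of 1.30 is a q of 0.05. Median within-list percentiles by −log10 q were 24.1 and 25.9 in 9C and 17.7 and 24.2 in 4H, so a typical member stood in the lowest part of its list. A member peak reached the upper part of its list, above the median, in only 32 members (11.6%). At the lower border of the rule, the highest −log10 q of a region had a median of 3.36 for 1 list and 4.38 for 2. At the upper border it was 5.75 for 3 lists and 74.95 for all 4 without Phaser. The highest value is taken over more peaks where there are more lists, which by itself raises it. Over single peaks the medians were 3.36, 3.56, 4.20 and 59.4 for 1, 2, 3 and 4 lists without Phaser. By both measures the step at the upper border is far larger than that at the lower one. There was overlap all the same. Without Phaser, 78 single-list regions exceeded the members' median of 4.71 and 2 regions of all 4 lists were below it.

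In reads, too, members lay next to the single-list peaks. The number of ChIP reads over a summit was worked out from the deposited fold and p value of each peak. Its median over member peaks was 61 and 67 in replicates 1 and 2 of 9C, and 61 and 56 in those of 4H. Single-list peaks had medians of 57, 62, 61 and 52 reads, and peaks of 4-list regions 245, 247, 223 and 234, both without Phaser. The members' reads ran from 39 to 119, and the background under them had a median of 8.00, as under single-list peaks, on the caller's scale. In each library the reads of member and single-list peaks overlapped widely, and the members' upper quartile lay under the lower quartile of the 4-list peaks.

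**Figure D2:**
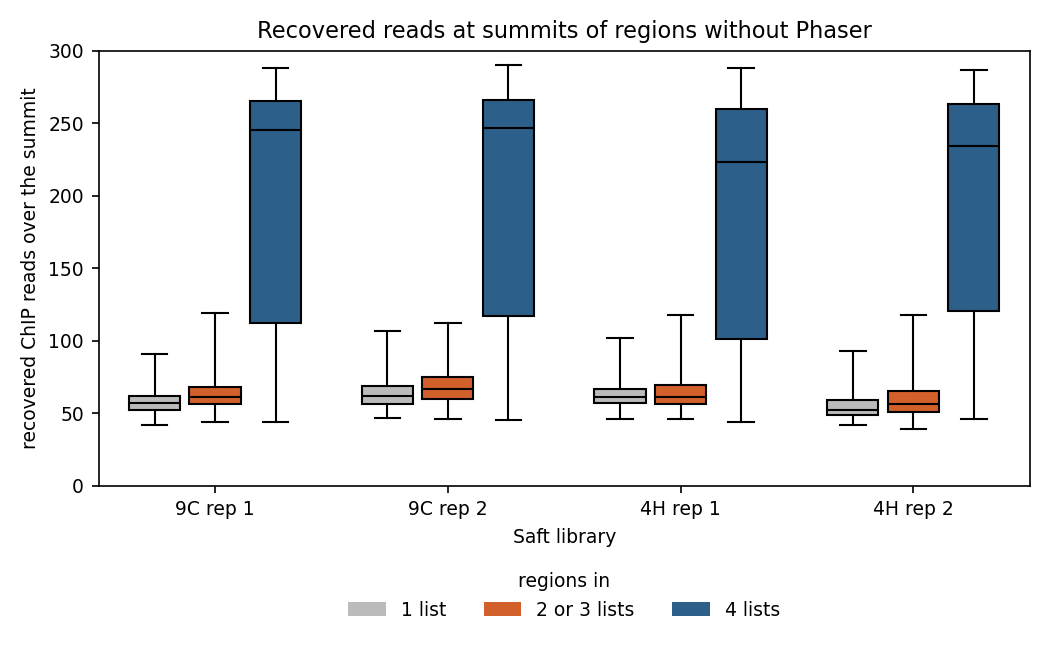
Boxes show recovered ChIP reads over the summits of peaks in regions without Phaser, by Saft library and number of lists (line, median; box, quartiles; whiskers, full range). Members in 2 or 3 lists have medians of 56 to 67 reads, next to 52 to 62 for 1 list and far under 223 to 247 for all 4.

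The members of highest −log10 q showed what the upper end of the set looks like. A region on 3R at 13835195 to 13835780 was enriched 5.52-fold and 3.96-fold in replicates 1 and 2 of 9C and 5.04-fold in replicate 2 of 4H, with 119, 84 and 77 reads. Its −log10 q values of 19.2, 8.92 and 12.3 included the highest of any member, yet replicate 1 of 4H listed no peak there. The summits lay within 11 bp of each other, and the nearest region in all 4 lists was 75.6 kb away. On 3R at 3058338 to 3058760, enrichment was 4.54-fold, 4.81-fold and 4.68-fold in the same libraries, and the nearest Phaser peak was 145 bp away. On 3R at 4790263 to 4790512, it was 4.02-fold, 4.42-fold and 5.06-fold. All 3 of these best-ranked 3-list members lacked replicate 1 of 4H. In all, 10 members had a peak with −log10 q over 10, of which 9 were in both clones and 9 in 3 lists. Replicates 1 and 2 of 9C held 9 and 10 of them, and replicates 1 and 2 of 4H held 2 and 8.

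Members confined to 1 clone had lower values than those in both. The median of the highest −log10 q was 4.22 for members of 1 clone and 5.17 for members of both, which also include every member with 3 lists. Among members with 2 lists only, it was 4.22 for 9C alone, 4.12 for 4H alone and 4.52 for 1 list of each clone, so these 3 classes lay close together. The 3 best-ranked members of 9C alone lay on 2R, 3R and 3L. That on 2R at 10245449 to 10245900 was enriched 2.63-fold and 4.84-fold in replicates 1 and 2, with 81 and 98 reads. On 3R at 19243858 to 19244069 enrichment was 3.33-fold and 4.04-fold, and on 3L at 16920374 to 16920740 it was 3.35-fold and 3.32-fold. Replicate 2 stood well above replicate 1 on 2R, and on 3L they were nearly equal. For 4H alone the best-ranked were 2R at 7747378 to 7747584 (3.78-fold and 3.49-fold), 3L at 19907905 to 19908139 (2.73-fold and 3.67-fold) and 3R at 6188364 to 6188552 (2.63-fold and 3.28-fold). No member of 4H alone had a −log10 q above 8.98, whereas 9C alone reached 13.8. Whether the tagged protein was absent from these places in the other clone was not tested, since a list holds no value where it holds no peak.

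Members with 1 list of each clone had values like those of 1 clone. The best-ranked lay on 2R at 18389116 to 18389436, with 4.01-fold in replicate 1 of 9C and 4.11-fold in replicate 1 of 4H. On 2L at 8638532 to 8638732 replicate 2 of 9C gave 3.10-fold and replicate 1 of 4H 3.62-fold. On 3L at 15740960 to 15741272 replicate 2 of 9C gave 3.13-fold and replicate 2 of 4H 3.77-fold. At each of these 3 places both clones had a peak while the other replicate of each clone did not, so replicates of a clone could differ in their lists as clones did. At the weak end, the member on 3L at 4010669 to 4010841 had −log10 q of 1.90 in replicate 2 of 9C and 1.45 in replicate 1 of 4H. The member on 3R at 23025710 to 23025969 had 2.25 in replicate 2 of 9C and 1.37 in replicate 2 of 4H, and that on 2L at 15406259 to 15406543 had 2.25 in replicate 2 of 9C and 1.73 in replicate 1 of 4H. A peak with −log10 q under 2 occurred in 29 members (10.5%). That weak were 30 member peaks (4.62%) and 4.76% of single-list peaks without Phaser.

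Members were narrow. The median width of the merged region was 302.5 bp (quartiles 247.75 and 351.25, range 154 to 1187). It was 184 bp for 1 list and 1363 bp for all 4, both without Phaser. Part of the step from 1 list is made by merging, because the widest single peak of a member had a median of 274 bp. Members of 4H alone were narrowest, with a median of 203.5 bp, followed by 9C alone (288 bp), 1 list of each clone (295 bp) and 3 lists (327 bp). Single member peaks had median widths of 241 and 230 bp in 9C and 194.5 and 223.5 bp in 4H. The shortest peak in any of the lists was 150 bp, and 29.4% and 34.7% of member peaks in 9C and 53.3% and 37.7% in 4H were under 200 bp. Members over 500 bp numbered 18, and the widest, on 3L at 21692634 to 21693820, joined 5 peaks over 1187 bp. Conversely, 31 of the 463 4-list regions without Phaser (6.70%) were no wider than the members' upper quartile. A narrow region was thus not always in few lists.

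**Figure D3:**
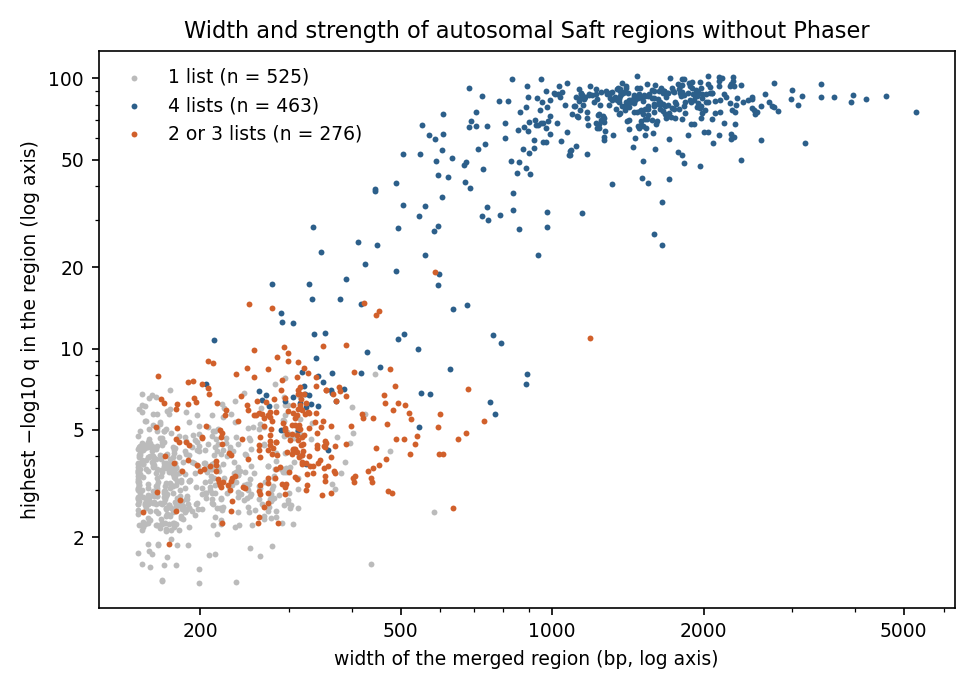
Each point is an autosomal Saft region without Phaser, placed by its merged width in bp and its highest −log10 q (both log axes). Members (orange) lie next to single-list regions (grey), with a median of 302.5 bp, and apart from most 4-list regions (blue), with a median of 1363 bp.

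Summits of different libraries fell near each other within a member but less exactly than in 4-list regions without Phaser. Over 454 pairs of peaks of different lists in the same member, the median distance between summits was 49.5 bp, and 75.6% were within 100 bp. In 4-list regions without Phaser the median was 7 bp, with 95.9% within 100 bp. Pairs from the same clone (43.5 bp, 178 pairs) and from different clones (54 bp, 276 pairs) differed little beside this. Of the 276 members, 269 had a single peak in each of their lists. The stretch common to all peaks of a member had a median of 160 bp, or 61.0% of its width, and 2 members were chained through partial overlaps with no base in common.

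Distance to the regions in all 4 lists divided the members. Measured from edge to edge, the nearest of the 670 regions in all 4 lists was at a median of 12.2 kb (quartiles 0.391 and 74.8 kb, range 4 bp to 944 kb). Few members lay at middle distances. There were 95 members (34.4%, 29.1 to 40.2) within 1000 bp, called near members below, only 36 (13.0%) between 1 and 10 kb, 96 (34.8%) between 10 and 100 kb, and 49 (17.8%) beyond 100 kb. Between 1 and 10 kb lay 17.5% of single-list regions and 44.7% of 4-list regions without Phaser. Single-list regions were near in 25.5% of cases (22.0 to 29.4), and 4-list regions without Phaser had another 4-list region within 1000 bp in 16.4%. Regions in 2 or 3 lists that did overlap Phaser were near in 5 of 183 cases (2.73%, 1.17 to 6.24), with a median distance of 49.8 kb. The limit of 1000 bp does not mark a gap, although the last near member was at 947 bp and the first beyond at 1006 bp. Members lay close to it on both sides, for example at 902 and 905 bp and at 1035 and 1047 bp. The median of 12.2 kb became 7.89 kb without replicate 1 of 9C, 5.29 kb without replicate 1 of 4H and 29.3 kb without replicate 1 of Phaser.

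**Figure D4:**
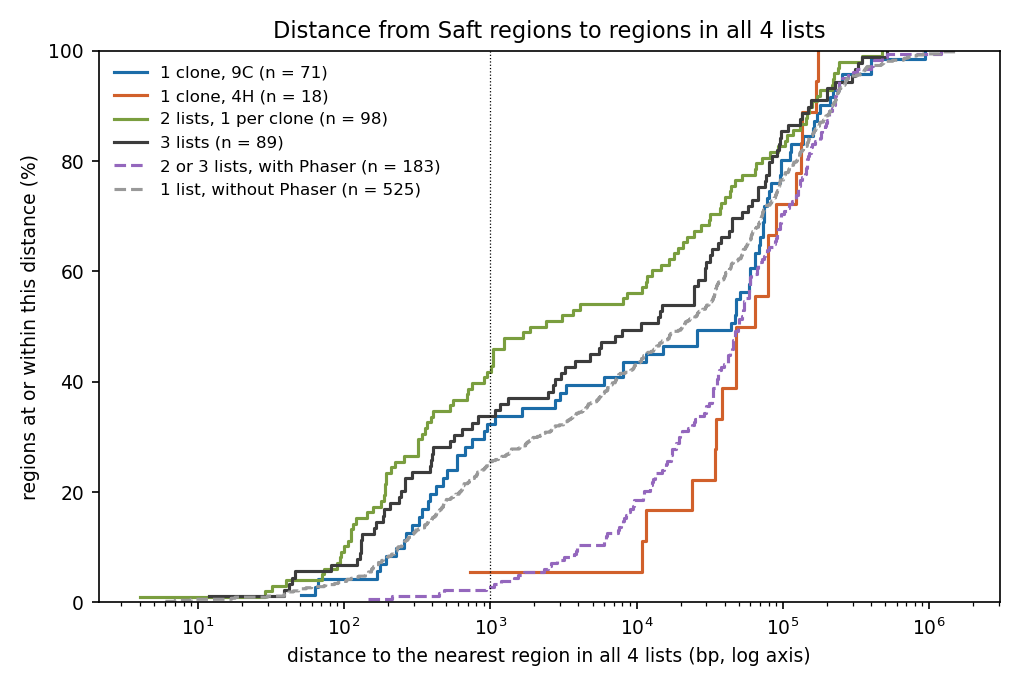
Curves give the share of regions (%) at or within each distance in bp (log axis) from the nearest region in all 4 lists, for the 4 classes of members and 2 other groups, with a dotted line at 1000 bp. Members of both clones are near in 41.8% (2 lists) and 33.7% (3 lists), and those of 9C alone in 32.4%. For 4H alone the share is 5.56%, and for regions with Phaser 2.73%. At 10 kb the curve of 4H alone is still at 5.56%, and that of regions with Phaser has reached 18.6%.

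The classes of members spread widely in this distance. Members with 1 list of each clone were near in 41 of 98 cases (41.8%) and had the shortest median, 2.14 kb. This class pooled unlike combinations. With replicate 2 of 4H, 27 of 40 were near beside replicate 2 of 9C and 10 of 21 beside replicate 1 of 9C. With replicate 1 of 4H, 3 of 23 were near beside replicate 2 of 9C and 1 of 14 beside replicate 1 of 9C. Members with 3 lists were near in 30 of 89 (33.7%), with a median of 10.7 kb, and those of 9C alone in 23 of 71 (32.4%, 22.7 to 43.9), with a median of 44.5 kb. Of the 18 members of 4H alone 1 was near (5.56%, 0.990 to 25.8), at 729 bp, and the median was 56.4 kb. The interval for 4H alone is wide and overlaps that of 9C alone. Every member of 4H alone is also held by replicate 1 of 4H. Members confined to 1 clone made up 25.3% (17.6 to 34.8) of near members and 35.9% (29.3 to 43.1) of the other 181.

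Nearness differed between the libraries, and 1 of them stood apart. Of the members held by replicates 1 and 2 of 9C, 61 of 186 (32.8%, 26.5 to 39.8) and 83 of 212 (39.2%, 32.8 to 45.9) were near. For replicate 2 of 4H it was 66 of 152 (43.4%, 35.8 to 51.4), and for replicate 1 of 4H 10 of 91 (11.0%, 6.08 to 19.1). Replicate 1 of 4H stood apart from its own second replicate as well as from 9C. Of the 30 near members with 3 lists, 25 lacked replicate 1 of 4H, while 3, 0 and 2 lacked replicate 1 of 9C, replicate 2 of 9C and replicate 2 of 4H. Regions in a single list showed the same order, with 18 of 125, 54 of 192 and 62 of 122 near in the other 3 libraries and 0 of 86 in replicate 1 of 4H, where a count of 0, taken as allowing 3 regions, allows a share of up to 3.49%. The peaks of replicate 1 of 4H were also narrower at the 4-list regions themselves, with a median total width of 1081.5 bp where such a region had a near member, against 1333.5, 1347.5 and 1418 bp in replicates 1 and 2 of 9C and replicate 2 of 4H. The part that this difference in width plays in the count of near members was not tested.

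Away from the 4-list regions the counts of the libraries separated by clone. Members more than 1000 bp from any 4-list region numbered 125 and 129 in the 9C lists and 81 and 86 in the 4H lists. Replicates of a clone now differed by 4 and 5 members, and the clones did not overlap. Among distant members, 48 of 9C alone and 17 of 4H alone count in both lists of their clone. The counts of replicates are therefore not independent, and their SD does not measure the spread between replicates. The means were 127 ± 2.83 for 9C and 83.5 ± 3.54 for 4H (SD, n = 2 each), a ratio of 1.52. As a share of autosomal peaks these were 10.2% and 9.66% in 9C and 7.74% and 7.69% in 4H. Distant single-list regions without Phaser numbered 107 and 138 in 9C and 86 and 60 in 4H. Their replicates thus differed more, though the clones did not overlap. Near members numbered 61 and 83 in 9C and 10 and 66 in 4H, so that the clones overlapped there (ratio 2.77). With lists of equal length, the 1000 strongest peaks of each, the distant members numbered 50 and 48 in 9C and 45 and 44 in 4H (ratio 1.10). The ratio was thus nearer to 1 with lists of the same length. The limit of 1000 bp was chosen with results of these data known.

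**Figure D5:**
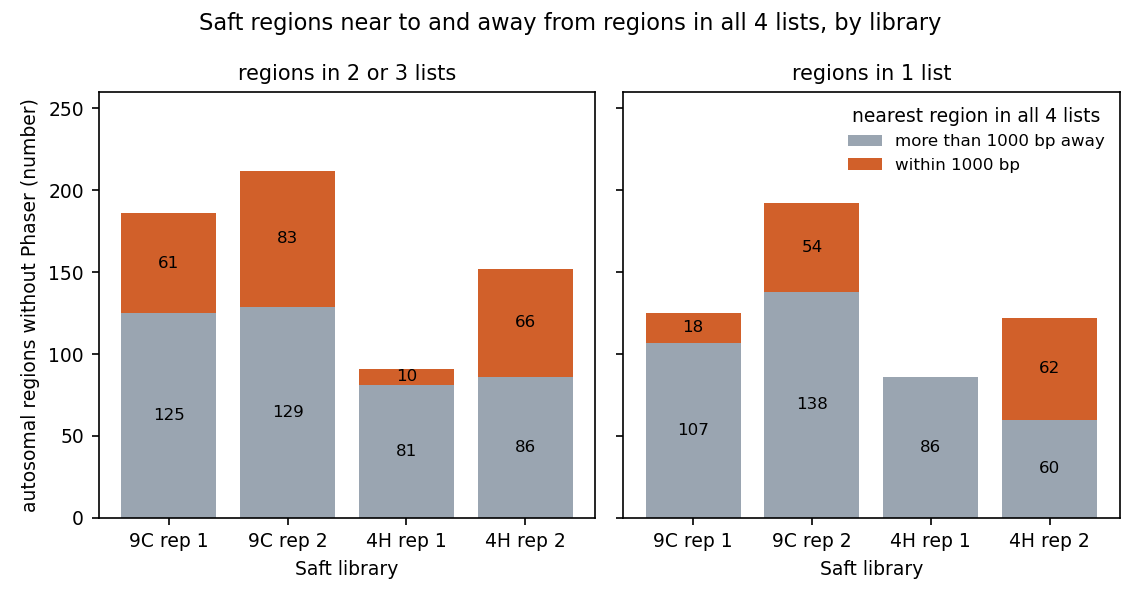
Stacked bars give the number of autosomal regions without Phaser that each Saft library held, within 1000 bp (orange) or farther (grey) from a region in all 4 lists, for regions in 2 or 3 lists (left) and in 1 list (right). Replicate 1 of clone 4H has 10 near regions on the left and 0 on the right, while its 81 distant members are close to the 86 of replicate 2.

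Near members had slightly lower values than the distant ones and were wider. Their gap to the 4-list region had a median of 228 bp, with 19 of them within 100 bp and 75 within 500 bp. Median fold was 2.81 for near and 2.93 for distant members, median reads were 60 and 63, and the median of the highest −log10 q was 4.28 and 5.10. The median width was 345 bp for near members against 282 bp, and their summits lay farther apart between libraries, at 68 bp against 39 bp. A list that lacked a near member held a peak in the neighbouring 4-list region by definition, and over 160 such cases its nearest peak was at a median of 332 bp.

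The extremes of distance were as follows. On 2L at 11503886 to 11504185, 4 bp from a region in all 4 lists, enrichment was 2.57-fold in replicate 1 of 9C and 2.68-fold in replicate 2 of 4H. On 2R at 4889200 to 4889850, 12 bp from such a region, it was 2.61-fold, 3.16-fold and 2.43-fold in replicates 1 and 2 of 9C and replicate 2 of 4H, with the last summit 348 bp from the first. At the other extreme, the member on 2L at 22012086 to 22012303 was 944 kb from any region in all 4 lists and was found in 9C alone, at 2.64-fold and 2.40-fold. The member on 3R at 7394625 to 7394975 was 513 kb away, with 80 and 88 reads in replicates 1 and 2 of 9C and 88 reads in replicate 1 of 4H, where the fold was highest at 3.91.

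Few of the 4-list regions with a near member overlapped Phaser. Of the 670 regions in all 4 lists, 94 (14.0%) had a member within 1000 bp, 12 had at least 2 and 10 had members on both sides. Of the 94, 5 (5.32%) overlapped a Phaser peak, compared with 202 of the other 576 (35.1%). Their median width was 1520.5 bp against 833 bp, and without the regions that overlap Phaser it was 1518 bp for 89 regions against 1309.5 bp for 374. In the same 89 and 374 regions, the highest summit had a median of 264 reads against 255.5. The most reads over any Saft summit were 287 to 290 by library, so both medians lay near the top of the range, which limits how far they could differ. There were 10 members with such a region within 1000 bp on each side.

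Most members had no other member close by, and the rest lay in small groups. The nearest other member was at a median of 47.0 kb (quartiles 9.08 and 170 kb, range 93 bp to 1719 kb), and 204 members (73.9%) had none within 10 kb. The remaining 72 formed 30 groups of 2 to 5. With fewer members left, the median of 47.0 kb became 80.8, 158, 62.3 and 101 kb without replicates 1 and 2 of 9C and replicates 1 and 2 of 4H. Within the classes the median distance to any other member was 27.5 kb for 1 list of each clone, 53.2 kb for 3 lists, 66.3 kb for 9C alone and 172 kb for 4H alone. The nearest Saft region of any kind was at a median of 4.83 kb. The stretch of at most 50 kb with most members, on 3R from 9756716 to 9784028, held 6 members among 9 Saft regions, of which 2 were in all 4 lists. From left to right, the first lay at 9756716 to 9757044, enriched 3.08-fold in replicate 2 of 9C and 3.32-fold in replicate 2 of 4H. The second, at 9774046 to 9774464, was enriched 3.10-fold, 3.22-fold and 3.60-fold in replicates 1 and 2 of 9C and replicate 2 of 4H. The other 4, at 9777836 to 9778149, 9780337 to 9780861, 9781250 to 9781602 and 9783780 to 9784028, were near members at 107, 257, 318 and 167 bp from a 4-list region, with folds of 2.55 to 3.31. Replicate 1 of 4H held a peak in none of the 6.

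The members kept no peak of Phaser by the rule, and most lay well away from one. The nearest Phaser peak was at a median of 12.1 kb, close to the 10.2 kb of single-list and the 13.4 kb of 4-list regions that likewise overlap no Phaser peak. There were 17 members (6.16%) within 1000 bp of a Phaser peak, the closest at 34 bp, against 6.29% and 4.32% in those sets without Phaser. Regions with Phaser grew from 16.3% (13.6 to 19.4) of those in 1 list to 33.5% (28.2 to 39.2) in 2 and 50.0% (42.7 to 57.3) in 3, and were 30.9% (27.5 to 34.5) in all 4. The exclusion therefore took away a larger share of the regions in 3 lists than of any other number.

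All 4 arms held members. Density, with each arm measured up to its last listed peak, was 2.11 per Mb on 2L (47 members), 3.01 on 2R (63), 3.64 on 3L (86) and 2.89 on 3R (80). Regions in all 4 lists without Phaser had densities of 4.08, 4.97, 5.34 and 5.13 per Mb, also lowest on 2L and highest on 3L. For every 100 such regions there were 51.6, 60.6, 68.3 and 56.3 members in the same order. The share of near members was 40.4% on 2L, 33.3% on 2R, 33.7% on 3L and 32.5% on 3R.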

How the data were processed

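The 276 regions and the lists of values were chosen with earlier results of these data known. Per the submitters' processing notes, MACS2 2.1.2.1, bedtools 2.27.1, Bowtie 1.2.2 and Trim Galore 0.6.2 were used on build dm3, with no settings given. The authors deposited 1 narrowPeak list per ChIP library, and the 6 inputs entered only as far as the authors used them. The deposited fold is a linear ratio, and the −log10 p and −log10 q in the deposited lists are the peak caller's, taken at the summit. No peak was filtered out. ChIP reads over a summit were worked out from fold and p as whole numbers (100% within 0.03 reads, against 7.75% to 8.86% with a wrong factor), a step taken over from an earlier analysis that had chosen it after the data were seen. The scripts were tested on simulated data. Distances run from edge to edge on the same arm. Libraries were compared by ratios of geometric means; the planned exact permutation tests are not reported, since they use values of the lists that chose the members and could not pass 0.05. The labels name no batch, and they do not say which cultures the biological replicates came from. Deviations of log fold in replicate 1 from the mean of its clone were uncorrelated between 9C and 4H (r = -0.00203 over the 670 regions in all 4 lists). This does not show whether replicates of the same number were handled together.

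Named regions followed a rule: in each of 4 classes the 3 members of best mean within-list rank by −log10 q, the 2 nearest to and 2 farthest from a region in all 4 lists, the members of the densest 50 kb, and the 3 weakest; the widest member was named after its values were seen. Alternatives changed the joining of peaks, the peaks used, the Phaser exclusion, the libraries and the distance measure. No sequence or gene annotation of dm3 was used here, so no region is tied to a gene. Software was matplotlib 3.10.9, pandas 2.3.3, scipy 1.17.1 and numpy 2.4.6 under Python 3.11.15.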

Additional observations from a re-analysis of the deposited data

Results flagged for a closer look

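Replicate 1 of clone 4H stood apart in the members with 3 lists. It was the missing library in 53 of the 89, against 9, 11 and 16 for the other 3 libraries, and the gap of 53 to the next value was 0.841 of the whole range, which set it apart from the other 3. Which list a member lacks belongs to how members were chosen, so this is a description and no test. Of 9 quantities per library looked at in this way this was the only one set apart, and chance alone marks about 1 group in 20. Among 3-list regions that overlap Phaser, replicate 1 of 4H was missing in 27 of 89 and replicate 2 of 4H in 40, so there it was not the farthest. With the 1000 strongest peaks of each list it was missing in 11 of 29 members with 3 lists, and with −log10 q of 2 or more in 49 of 83.

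Outside the large autosomal arms, the X held 15 regions in 2 or 3 Saft lists without Phaser, above a floor of 3 regions. They were part of 31 such regions with or without Phaser and of 211 merged Saft regions on the X, and the highest fold of these 31 lay between 2.60 and 5.50.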

How the results depend on the processing

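Of 104 recomputed values, 85 were counted as unchanged, 18 moved farther and 1 changed its order. Counts were held to 1.5 times the reported count, and the share confined to 1 clone to its Wilson interval. Widths and distances were held to the spread between libraries. The ratios of 9C to 4H had no such limit, and only a turned order could change their label. They gave 15 and 14 of the 85, which therefore do not show stability. The ratio of member peaks ran from 1.14 to 2.83 and was counted as unchanged throughout. Folds of the named members were recomputed apart from the 104, and all 56 values were counted as unchanged. Leaving out 1 of 2 or 3 values never moves their mean by the SD between lists, so these do not show stability either. The cause of the changes was not tested beyond what each alternative removes. The number of members, 276 as reported, was 109 with the 1000 strongest peaks of each list, overlapping 86 of the 276, and 459 with no exclusion for Phaser. Leaving out 1 library at a time gave 137 to 403 members, 17.4% to 69.6% confined to 1 clone, 1.41 to 2.83 for the 9C to 4H ratio of member peaks, 0.978 to 1.05 for that of median fold (0.978, the changed order, without replicate 1 of 4H), 294 to 306 bp for width, 5.29 to 29.3 kb to the nearest region in all 4 lists and 46.8 to 158 kb to the nearest other member. Without a Saft library, only the clone with both of its lists left could hold members confined to 1 clone. Width was 274 bp by the widest single peak. The distance to a region in all 4 lists was 31.7 kb with no exclusion for Phaser and 30.0 kb with exclusion only where both Phaser lists had a peak. The distance to the nearest other member was 173 kb with the 1000 strongest peaks. The share of near members ran from 21.8% to 40.7% over the alternatives. A replicate block leaves the ratios of 1.69 and 1.01 as they are, and its smallest possible exact permutation p is 0.5, against 0.333 without it, so no call could be made either way. Unknown depth limits every comparison of counts between lists, and 2 libraries a clone limit every test.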

Other observations

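Chromosome 4 held 4 merged Saft regions, of which 1 was in 2 or 3 lists, without Phaser and with a highest fold of 2.36. Heterochromatic scaffolds held 15 merged Saft regions, 3 of them in 2 or 3 lists and 1 of these without Phaser.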
